A study of Mus musculus with 6 samples.

Results

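Red blood cells carry a small set of miRNAs at very high levels, and 3 mature miRNAs of this set were followed through 6 small RNA libraries of mouse serum: miR-451a (MIMAT0001632), miR-144-3p (MIMAT0000156) and miR-486a-5p (MIMAT0003130). They were chosen by identifier as miRNAs known from red cells, not by their counts here, although earlier results of these data were known. Of the 3 members, 2 were listed in every library and miR-486a-5p in none, out of 788 miRNAs listed in at least 1 library. The serum came from healthy male and female 129/SVj mice of 2 to 9 months, sedated with tribromoethanol and bled by cardiac puncture. RNA was isolated from the serum of individual animals. All libraries are of healthy mice of the same strain, with no experimental treatment, so the comparison is between library preparation kits. There were 2 libraries each for NEBNext Multiplex Small RNA, TruSeq small RNA v2 and TailorMix miRNA v2. The labels number the serum 1 and 2 within each kit without naming the mouse, so p-values measure the spread between these libraries, which may be technical.

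During red cell maturation, miR-144 and miR-451a are cut from the same primary transcript, which an erythroid transcription factor switches on. miR-451a is unusual among miRNAs because its short hairpin is not cut by Dicer but by Argonaute 2 and then trimmed, while miR-144 follows the usual route through Dicer and yields an arm from each side of its hairpin. miR-486-5p, made from an alternative promoter within the gene of the red cell protein ankyrin 1, is also abundant in muscle. Because red cells hold so much miR-451a and are easily lysed when blood is drawn, the ratio of miR-451a to miR-23a-3p (MIMAT0000532), a miRNA that red cells contain at lower levels, is widely used in serum work as an index of hemolysis.

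The mature sequences of the members, of the other arm of miR-144 and of the reference miRNA are shown because their counts are compared below. Each is written 5′ to 3′ with the seed, bases 2 to 8, in capitals.
miR-451a: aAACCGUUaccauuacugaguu
miR-144-3p: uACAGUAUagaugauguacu
miR-144-5p: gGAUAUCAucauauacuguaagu
miR-23a-3p: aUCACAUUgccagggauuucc
These sequences are from RefSeq on GRCm38.p6, the assembly to which the reads were mapped. The 4 seeds differ from each other, and none was shared with another name among the 1679 mature miRNAs of the RefSeq table used here. That table does not hold every mouse miRNA, so a seed shared with a paralog outside it, for example one of miR-23a-3p, would be missed. Both miR-144 arms are poor in G and C. The GC content was 30% for miR-144-3p and 30.4% for miR-144-5p, and 1.61% and 2.03% of the mature miRNAs in that table had a GC content as low or lower. miR-451a held 36.4% G and C, which 10.2% of mature miRNAs matched or undercut, and miR-23a-3p 47.6%, with 35.4% at or below it. miR-451a and miR-23a-3p begin with A, as 25.6% of the mature miRNAs in the table do, while miR-144-3p begins with U, as 40.9% do, and miR-144-5p with G, as 12.8% do. miR-451a and both miR-144 arms end in U, as 28.6% do.

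The hairpins lie side by side on the plus strand of chromosome 11, Mir144 from 78073005 to 78073070 and Mir451a from 78073170 to 78073241, with 99 bases between them. They are shown with the mature miRNAs in capitals, so that the arms counted below can be placed.
Mir144: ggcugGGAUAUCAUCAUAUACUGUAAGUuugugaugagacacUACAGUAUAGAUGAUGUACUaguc
Mir451a: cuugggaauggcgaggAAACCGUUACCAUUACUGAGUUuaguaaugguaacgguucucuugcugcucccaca
In Mir144 the 5p arm fills positions 6 to 28 and the 3p arm positions 43 to 62 of the 66 bases. The mature miR-451a fills positions 17 to 38 of 72. It therefore crosses the midpoint of its hairpin, unlike either arm of miR-144. Mir451b is annotated over the same bases as Mir451a on the opposite strand. The gene of the reference, Mir23a, lies on chromosome 8 from 84208518 to 84208592.

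Reads counted on miRNAs numbered between 165139 and 351758 per library, 367 to 540 miRNAs were listed per library, and a count of 3 corresponded to 0.000853% to 0.00182% of miRNA reads. Counts of the members are given below as deposited and as the share of a library's miRNA reads, with 95% Wilson intervals where a single library is described. Reads carry no molecular identifiers, so these intervals cover counting error only. Differences between kits are log2 fold changes from edgeR's quasi-likelihood test over the 360 miRNAs that reached 4 counts in 2 or more libraries, with TMM normalization and Benjamini-Hochberg adjustment over all 360. The fit left 3 residual degrees of freedom, and its estimate of spread is shared over all libraries and drawn partly from the other miRNAs. Very small adjusted p-values and the standard errors depend on that shared estimate. Differences between kits were the rule and not the exception among miRNAs. At an adjusted p under 0.05, TruSeq differed from NEBNext for 68.6% of the 360 miRNAs, of which 94 rose and 153 fell. TailorMix differed from NEBNext for 77.5% (141 risen, 138 fallen) and from TruSeq for 70.6% (150 risen, 104 fallen). The shares of the libraries of 2 kits did not overlap for 83.6%, 88.9% and 83.9% of the 360 in these comparisons. With the total of miRNA reads as library size in place of TMM, the calls split into 61 higher and 191 lower, 108 higher and 172 lower, and 175 higher and 89 lower. With the total of all annotated small RNA reads, they split into 134 and 128, 188 and 64, and 187 and 78. The median log2 fold change of all 360 was -0.52, -0.24 and 0.50 under TMM and -1.48, -0.88 and 0.91 with the total of miRNA reads, so the size of a member's change is read beside these medians.

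miR-451a was a leading miRNA with NEBNext and a minor component with the other kits. NEBNext libraries held 6539 and 5022 reads of it, TruSeq libraries 199 and 178, and TailorMix libraries 317 and 289. Both NEBNext values lay far above the other 4, and the TruSeq values were the lowest, without overlap between kits. These values compare libraries of different kits, and the labels do not say whether the same mice served every kit. Whether the sera differed in lysed red cells was not tested. As a share of miRNA reads, miR-451a took 2.97% ± 0.0941 under NEBNext, 0.0598% ± 0.00462 under TruSeq and 0.155% ± 0.0121 under TailorMix (SD, n = 2 for every kit). The highest kit mean was 49.7 times the lowest, while replicates of the same kit differed by at most 1.12-fold. It ranked 9th among the miRNAs listed in each NEBNext library, 69th and 67th with TruSeq, and 56th and 59th with TailorMix. The between-kit spread of the share was the largest of the 15 ways to divide 6 libraries into 3 pairs (two-sided p = 0.0667 by exact permutation, the lowest value that 15 groupings can give).

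In the fit across all miRNAs, miR-451a was called in each of the 3 comparisons. From NEBNext to TruSeq it fell by 4.57 on the log2 scale (standard error 0.13, edgeR adjusted p = 5.99e-26). This was the 69th largest change in either direction among the 360, so many other miRNAs differed more between these kits. TailorMix was also lower than NEBNext, with a log2 fold change of -3.61 (standard error 0.12, edgeR adjusted p = 1.00e-23). From TruSeq to TailorMix miR-451a rose by 0.96 on the log2 scale (standard error 0.13, edgeR adjusted p = 4.39e-08), which is 0.46 above the median of all tested miRNAs. Scaled by miRNA reads alone, the log2 ratios of the kit means were -5.64, -4.26 and 1.38. With the total of annotated reads as library size, the fitted changes were -3.92, -2.23 and 1.69.

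miR-144-3p, which shares its primary transcript with miR-451a, did not follow it. NEBNext libraries held 258 and 183 reads, TruSeq libraries 1190 and 967, and TailorMix libraries just 21 and 19. TruSeq, the kit with the least miR-451a, gave the most miR-144-3p, and no libraries of different kits overlapped. Its share averaged 0.113% ± 0.00277 under NEBNext, 0.341% ± 0.00319 under TruSeq and 0.0103% ± 0.000852 under TailorMix (SD, n = 2 for every kit). The TruSeq mean was 33.2 times the TailorMix mean (two-sided exact permutation p = 0.0667 for the 3 kits, again the lowest possible). By rank, miR-144-3p stood 33rd and 32nd with TruSeq, 81st and 80th with NEBNext, and 149th and 160th with TailorMix. The TailorMix shares rest on few reads, with 95% Wilson intervals of 0.00710% to 0.0166% and 0.00618% to 0.0151%. These intervals lay below the interval of each NEBNext library, the lowest of which began at 0.0959%.

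The edgeR fit called miR-144-3p in all 3 comparisons as well. TruSeq exceeded NEBNext by 2.66 on the log2 scale (standard error 0.14, edgeR adjusted p = 2.09e-18), in the opposite direction to miR-451a. From NEBNext to TailorMix it fell by 2.80 on the log2 scale (standard error 0.21, edgeR adjusted p = 8.38e-14), in the same direction as miR-451a. With the total of miRNA reads as library size these changes were 1.59 and -3.46, and with that of annotated reads 3.32 and -1.42, so their size but not their direction depended on the scaling. The difference between TailorMix and TruSeq was -5.46 (standard error 0.19, edgeR adjusted p = 2.42e-23), against 0.96 for miR-451a, and was the 67th largest in size among the 360. The 2 listed members were thus called in every comparison, beside 68.6%, 77.5% and 70.6% of all miRNAs tested. They moved in opposite directions in both comparisons that involve TruSeq. These comparisons share libraries and are not independent of each other.

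**Figure D1:**
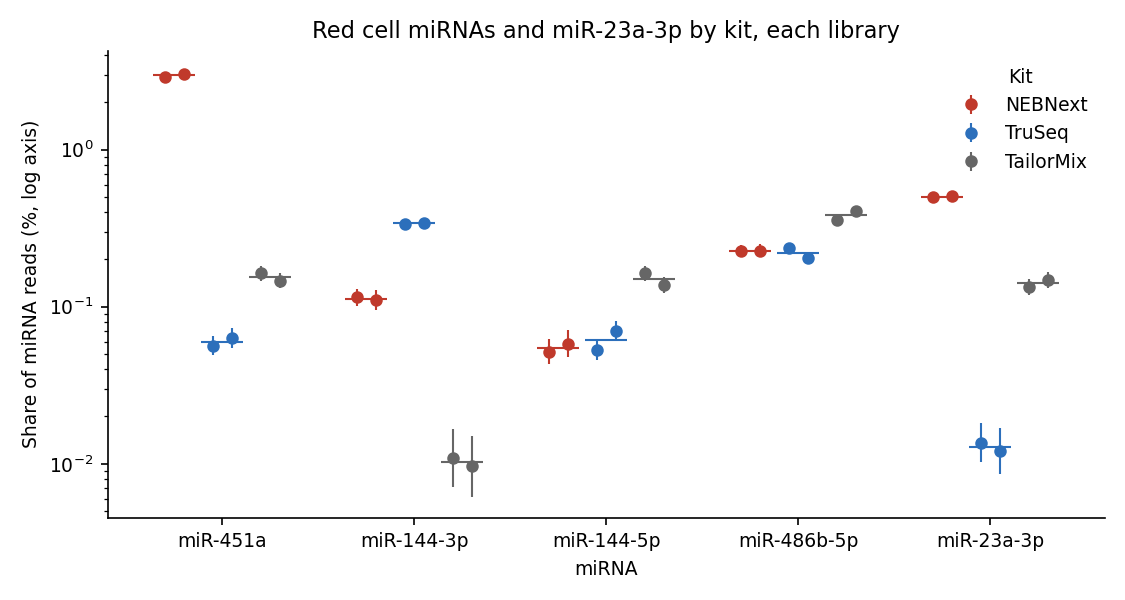
Share of miRNA reads (%, log axis) of 5 miRNAs in each library, with points for single libraries, bars for 95% Wilson intervals and short lines for kit means. miR-451a sits near 2.97% with NEBNext and at or below 0.164% in the other 4 libraries, while miR-144-3p is highest with TruSeq and miR-486b-5p stays between 0.206% and 0.408%.

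The identifier of miR-486a-5p was listed in none of the 6 libraries and was taken as 0 counts in each. A count of 3 would be a share of 0.00133% and 0.00182% under NEBNext and of 0.000853% and 0.00106% under TruSeq. Under TailorMix it would be 0.00155% and 0.00152%. These shares concern reads assigned to the identifier and set no upper limit on miR-486a-5p in the serum. No fold change, test or ratio was computed for it. RefSeq places its gene, Mir486, on chromosome 8 from 23142555 to 23142682. A second gene, Mir3107, which carries mir-486b among its synonyms, lies wholly inside it from 23142573 to 23142662, so that all 90 bases of Mir3107 are shared. Reads in this stretch cannot be told apart by position alone, and how they were divided between the identifiers is not given in the sources used here.

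The identifier MIMAT0014943, which is miR-486b-5p by general knowledge of miRBase and not by a table used here, was listed in every library. NEBNext libraries held 512 and 376 reads of it, TruSeq libraries 829 and 580, and TailorMix libraries 695 and 803. These counts exceed those of miR-451a with TruSeq and TailorMix and fall below them with NEBNext. Its share of miRNA reads was 0.228% in both NEBNext libraries, lay at 0.236% and 0.206% under TruSeq, and reached 0.359% and 0.408% under TailorMix. The TailorMix libraries lay above the other 4, and the NEBNext values fell between the TruSeq values. The highest and lowest kit means differed by 1.74-fold, against 49.7-fold for miR-451a and 33.2-fold for miR-144-3p (exact permutation test of the share of MIMAT0014943, two-sided, p = 0.200).

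For MIMAT0014943 the call between TruSeq and NEBNext and the size of the other changes depended on the scaling. Under TMM the log2 fold change was 1.03 (standard error 0.13, edgeR adjusted p = 1.74e-08), and with the total of miRNA reads as library size it was -0.043 (edgeR adjusted p = 0.764). From NEBNext to TailorMix it rose by 1.40 on the log2 scale (standard error 0.13, edgeR adjusted p = 1.49e-11), by 0.75 with the total of miRNA reads as library size and by 2.79 with that of annotated reads. Between TailorMix and TruSeq the log2 fold change was 0.38 (standard error 0.13, edgeR adjusted p = 0.00913), below the median of 0.50 of all miRNAs. That last call was lost without TruSeq replicate 2, at 0.15 (edgeR adjusted p = 0.239), and without TailorMix replicate 2, at 0.20 (edgeR adjusted p = 0.309). It was also lost under RLE normalization, DESeq2 and no filter on low counts.

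The other arm of the miR-144 hairpin, miR-144-5p, was read from the identifier MIMAT0016988, again by general knowledge of miRBase. NEBNext libraries held 116 and 96 reads, TruSeq libraries 186 and 199, and TailorMix libraries 315 and 271. TailorMix, which had the fewest reads of the 3p arm, had the most of the 5p arm. The share of miRNA reads of miR-144-5p averaged 0.0549% ± 0.00463 under NEBNext, 0.0617% ± 0.0125 under TruSeq and 0.150% ± 0.0178 under TailorMix (SD, n = 2 for every kit). NEBNext and TruSeq libraries overlapped, and their means differed by less than the SD of the TruSeq replicates (two-sided exact permutation p = 0.133 for the 3 kits). Under TMM the log2 fold change from NEBNext to TruSeq was 1.23 (edgeR adjusted p = 1.70e-07), but with the total of miRNA reads it was 0.17 (edgeR adjusted p = 0.356). From NEBNext to TailorMix miR-144-5p rose by 2.11 on the log2 scale (standard error 0.17, edgeR adjusted p = 3.50e-13), whereas the 3p arm of the same hairpin fell by 2.80. The rise of miR-144-5p was 1.46 with the total of miRNA reads and 3.50 with that of annotated reads.

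Which arm of miR-144 predominated therefore differed between kits. The ratio of 3p to 5p counts stood at 2.22 and 1.91 under NEBNext, at 6.40 and 4.86 under TruSeq, and at 0.0667 and 0.0701 under TailorMix. The 3p arm was ahead in 4 libraries, and in both TailorMix libraries the 5p arm was ahead by 15-fold and 14.3-fold. Exact 95% intervals for the TailorMix ratios reached from 0.0407 to 0.104 and from 0.0416 to 0.112, so all of both intervals lay below equal counts. The geometric means of TruSeq and TailorMix differed by 81.6-fold. Both arms were counted in the same library, so this ratio needs no scaling between libraries (two-sided exact permutation p = 0.0667, the lowest possible). The comparison of arms was made after the counts had been seen.

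The ratio of miR-451a to miR-144-3p likewise turned over between kits. There were 25.3 and 27.4 reads of miR-451a for each read of miR-144-3p with NEBNext and 15.1 and 15.2 with TailorMix. With TruSeq the ratio was 0.167 and 0.184, so that miR-144-3p had 5.98 and 5.43 reads for each read of miR-451a. The geometric means of NEBNext and TruSeq were 150.3-fold apart, and the libraries of a kit lay close together (two-sided exact permutation p = 0.0667). NEBNext and TailorMix differed far less, with a difference of -0.80 in the mean log2 ratio from NEBNext to TailorMix. The intervals of the NEBNext libraries, from 22.4 to 28.8 and from 23.7 to 32.0, overlapped those of the TailorMix libraries, from 9.71 to 24.7 and from 9.56 to 25.6. Overlap of separate intervals does not show that the kits were alike, and the difference between this pair of kits was not tested.

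The hemolysis index, the ratio of miR-451a to miR-23a-3p, stood at 5.84 and 6.01 under NEBNext, at 4.15 and 5.24 under TruSeq, and at 1.23 and 0.990 under TailorMix. Both TailorMix libraries lay below the other 4, and the TruSeq libraries lay below the NEBNext libraries. The mean log2 ratio averaged 2.57 ± 0.0294 under NEBNext, 2.22 ± 0.238 under TruSeq and 0.14 ± 0.221 under TailorMix (SD, n = 2 for every kit). Over the 3 kits the between-kit spread was the largest of the 15 groupings (two-sided exact permutation p = 0.0667). A comparison of 2 kits alone, with 2 libraries against 2, cannot give a two-sided exact p below 0.333. The exact 95% intervals of the TruSeq libraries, from 3.01 to 5.81 and from 3.61 to 7.80, overlapped those of the NEBNext libraries, from 5.48 to 6.23 and from 5.59 to 6.48. Both TruSeq values were nonetheless the lower, and the difference between this pair of kits was not tested beyond these intervals. TailorMix intervals, from 1.04 to 1.45 and from 0.838 to 1.17, were clear of all the others. The geometric mean of NEBNext was 5.38 times that of TailorMix. Whether the sera differed in red cell lysis was not tested. Free hemoglobin was assessed by absorbance for the serum, per the labels, and its values were not used here.

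Between its highest and lowest kit means, the reference miRNA moved about as much as the listed members did, but single comparisons of kits differed. NEBNext libraries held 1119 and 835 reads of miR-23a-3p, TruSeq libraries 48 and 34, and TailorMix libraries 258 and 292. Its share was 0.502% ± 0.00566, 0.0128% ± 0.00113 and 0.141% ± 0.0106 (SD, n = 2 for every kit, in the same order), a range of 39.0-fold between kit means. From NEBNext to TruSeq its log2 fold change was -4.20 (standard error 0.17, edgeR adjusted p = 3.64e-21), next to -4.57 for miR-451a. From NEBNext to TailorMix it was -1.18 (standard error 0.13, edgeR adjusted p = 1.52e-09), next to -3.61 for miR-451a. With the total of annotated reads as library size this last value for miR-23a-3p turned to 0.20 (edgeR adjusted p = 0.203), and the ratio to miR-451a was unaffected because both are counted in the same library. From TruSeq to TailorMix miR-23a-3p rose by 3.02 on the log2 scale (standard error 0.18, edgeR adjusted p = 1.86e-16), next to 0.96 for miR-451a. With TruSeq the ratio rests on the 48 and 34 reads of the reference.

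**Figure D2:**
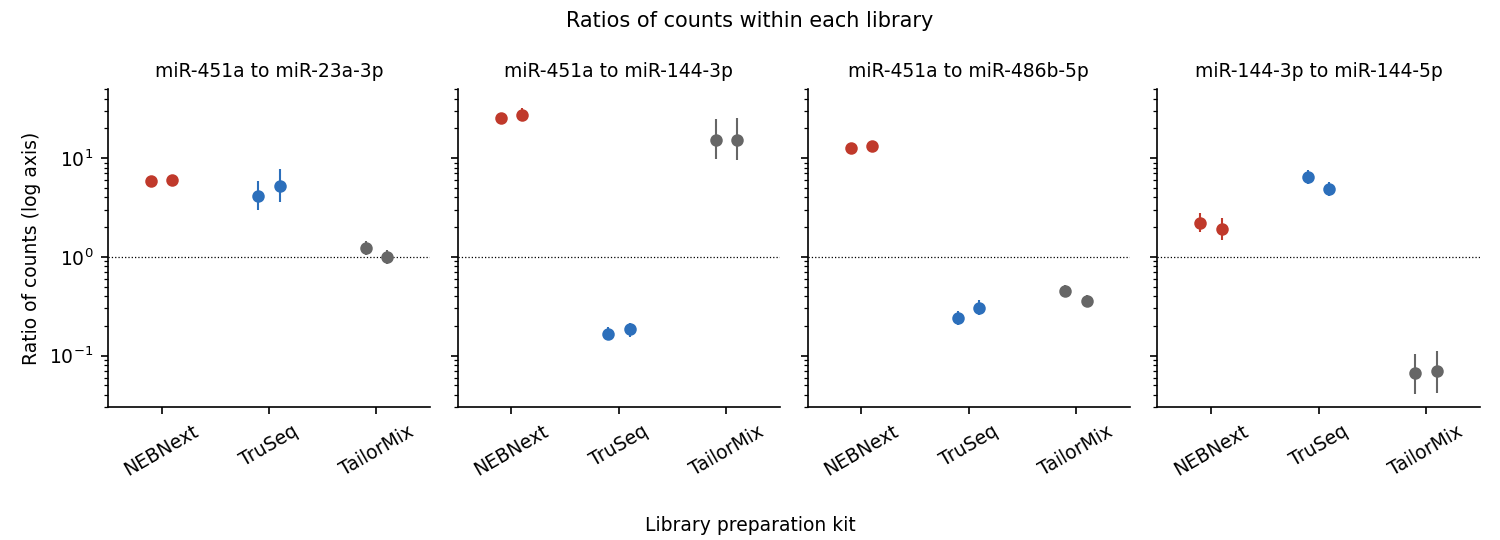
Ratios of counts within each library (log axis), with points for the 2 libraries of each kit, bars for exact 95% intervals and a dotted line at equal counts. The ratio of miR-451a to miR-23a-3p falls to 1.23 and 0.990 with TailorMix, miR-451a to miR-144-3p falls below equal counts only with TruSeq, and miR-144-3p to miR-144-5p only with TailorMix.

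Against MIMAT0014943, miR-451a gave ratios of 12.8 and 13.4 under NEBNext, of 0.240 and 0.307 under TruSeq, and of 0.456 and 0.360 under TailorMix. NEBNext stood apart from the other kits, which lay close together. The geometric means of NEBNext and TruSeq were 48.1-fold apart (two-sided exact permutation p = 0.0667), and those of TailorMix and TruSeq 1.49-fold. This ratio, too, was computed after the counts had been seen, in place of the ratio to miR-486a-5p.

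Summed over miR-451a, miR-144-3p and MIMAT0014943, the red cell miRNAs took 3.25% and 3.38% of miRNA reads under NEBNext, but 0.631% and 0.612% under TruSeq and 0.534% and 0.564% under TailorMix. TruSeq and TailorMix were thus close in the sum, but a different miRNA led it with each kit. With NEBNext, miR-451a made up 89.5% and 90.0% of the summed reads. With TruSeq, miR-144-3p led with 53.7% and 56.1%, and miR-451a held 8.97% and 10.3%. In the TailorMix libraries MIMAT0014943 led with 67.3% and 72.3%, and miR-144-3p held 2.03% and 1.71%.

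**Figure D3:**
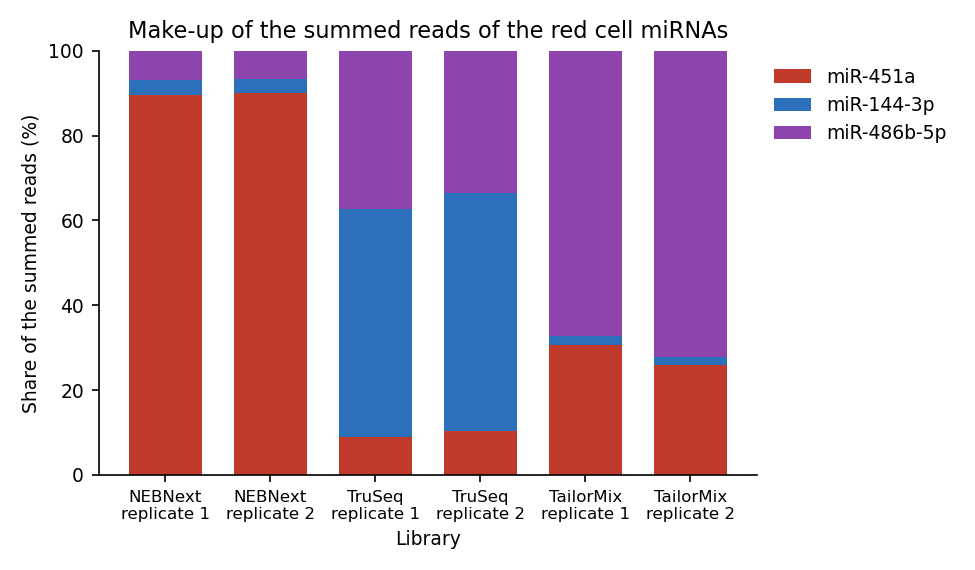
Make-up of the summed reads of miR-451a, miR-144-3p and miR-486b-5p (MIMAT0014943) in each library, as stacked shares from 0 to 100%. miR-451a leads with NEBNext (89.5% and 90.0%), miR-144-3p with TruSeq (53.7% and 56.1%) and miR-486b-5p with TailorMix (67.3% and 72.3%).

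Likeness to the members was described by Pearson's r of log2 CPM, scaled to miRNA reads with a pseudocount of 1, over the 6 libraries. The 6 points are 3 pairs from the same kits, so r mostly compares 3 kit levels, and no p is given. Among 101 other miRNAs with a mean of at least 100 counts, the 3 most like miR-451a had r between 0.994 and 0.997, and 22 had r of at least 0.9. miR-23a-3p had r of 0.894 with miR-451a and ranked 23rd. For miR-144-3p the 3 closest had r between 0.996 and 0.998, and 10 had r of at least 0.9. The members themselves were unlike each other. miR-451a and miR-144-3p had r of -0.026, and miR-144-3p had r of -0.949 with MIMAT0014943 and of -0.890 with the 5p arm of its own hairpin. No table used here pairs the identifiers of the closest miRNAs with names, so they are not named.

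**Figure D4:**
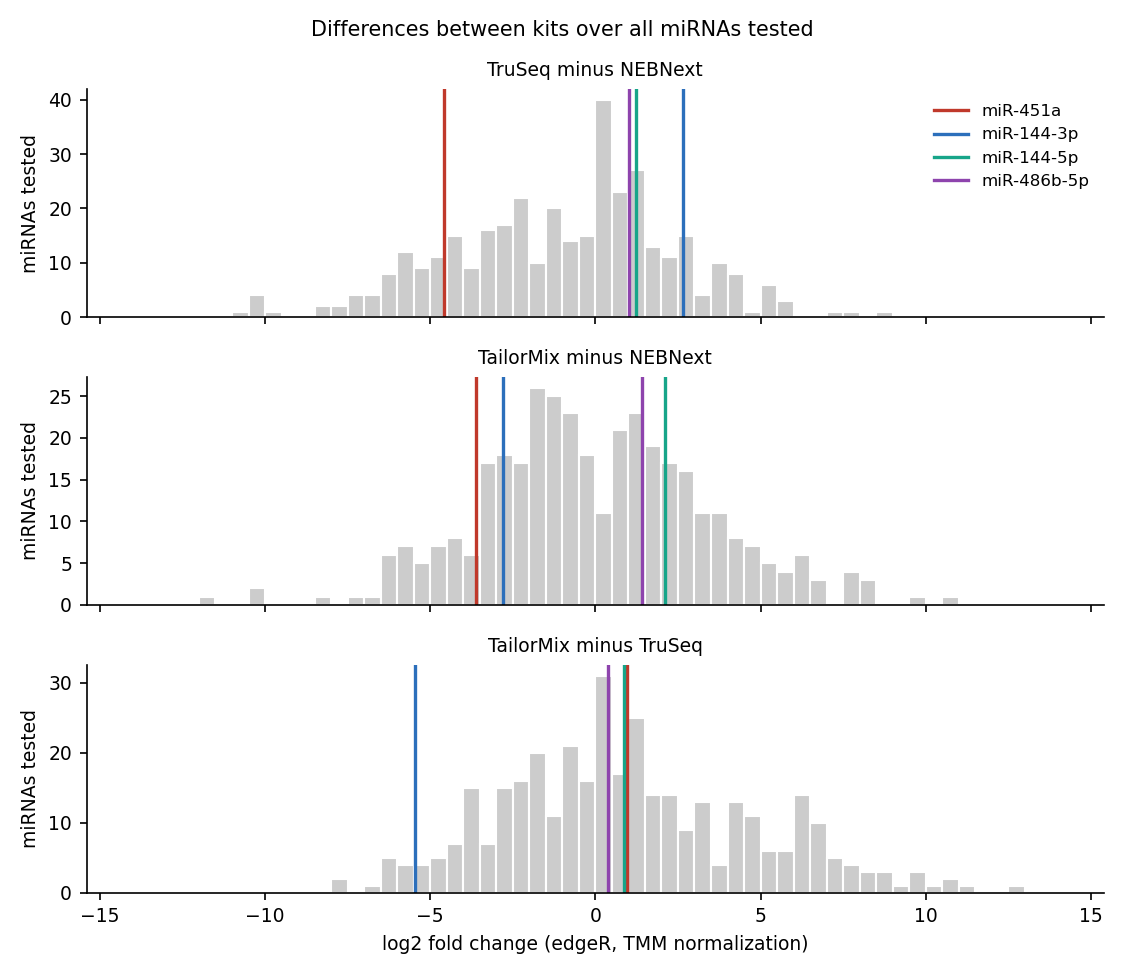
Histograms of the log2 fold changes (edgeR, TMM normalization) of all 360 miRNAs tested in the 3 comparisons of kits, with vertical lines for miR-451a, miR-144-3p, miR-144-5p and miR-486b-5p. miR-451a lies at -4.57 and miR-144-3p at 2.66 for TruSeq minus NEBNext, and at 0.96 and -5.46 for TailorMix minus TruSeq, within the range of the other miRNAs.

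Of 9 further miRNAs that red cells are known to hold, a source used here gives an identifier for 1, miR-16-5p (MIMAT0000527). It was lowest with NEBNext, where miR-451a was highest, and had a Pearson's r of -0.910 with miR-451a over the 6 libraries. Its log2 fold change from NEBNext to TruSeq was 4.03 (edgeR adjusted p = 6.80e-26), beside -4.57 for miR-451a. Over 14 alternative settings this change of miR-16-5p ranged from 2.96 to 4.68. From NEBNext to TailorMix miR-16-5p also rose, by 4.34, beside -3.61 for miR-451a. From TruSeq to TailorMix both rose, miR-16-5p by 0.31 (edgeR adjusted p = 0.00469, a call that some alternatives lost) and miR-451a by 0.96. The opposite directions thus held only against NEBNext. The other miRNAs of this list were not analysed here, so miR-16-5p does not stand for the group.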

How the data were processed

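The authors deposited, for each of the 6 libraries, read counts per mature miRNA and per entry annotated as another small RNA, without normalization. Per the labels and the study's methods, adaptors were trimmed with Cutadapt 1.8.1, short and low-quality reads were dropped, and reads were mapped to GRCm38 with Bowtie 1.1.2 without mismatches and annotated by genomic position against miRBase, UCSC and Ensembl. Exact matching counts neither edited nor tailed miRNAs. An unlisted miRNA was taken as 0.

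From these counts, shares, Wilson and exact (Clopper-Pearson) intervals, ratios and exact permutation tests were computed with Python 3.11.15, pandas 2.3.3 and scipy 1.17.1. The 360 miRNAs that reached 4 counts in 2 or more libraries were fitted with edgeR 4.0.16 (R 4.3.3; glmQLFit and glmQLFTest on kit, all 6 libraries, TMM). The standard error is the log2 fold change divided by the root of F. DESeq2 1.42.0, other normalizations, filters and subsets were alternatives. The script was tested on simulated data. The members and lists were chosen with earlier results of these data known. Named were the members, the reference, the other arms and copies of the members, red cell and other cell type miRNAs and, by correlation, the most alike. No table used here pairs identifiers with names, so 2 of 5 arms and copies were read by general knowledge of miRBase after the counts had been seen, and the 7 markers of other cell types and the sum with miR-23b-3p were not analysed here. Replicates of a kit differed by more than counting noise (chi-square per degree of freedom 2.16, 15.0 and 1.59 for NEBNext, TruSeq and TailorMix) and were kept as separate samples.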

Additional observations from a re-analysis of the deposited data

How the results depend on the processing

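miR-451a and miR-144-3p kept their direction and an edgeR or DESeq2 adjusted p under 0.05 in all 3 comparisons under each of the 14 alternatives run: RLE, library sizes by miRNA or annotated reads, DESeq2, 2 other filters, fits of 4 libraries, the replicate block and each library left out. For miR-451a, log2 fold changes ranged from -5.64 to -3.92 (TruSeq minus NEBNext), -4.26 to -2.23 (TailorMix minus NEBNext) and 0.78 to 1.69 (TailorMix minus TruSeq). For miR-144-3p they ranged from 1.59 to 3.32, -3.46 to -1.42 and -5.65 to -4.74. The counts of called miRNAs lay within 1.5-fold of the main ones. With the replicate block they were 232, 250 and 235, and no call of a named miRNA was lost. The numbers were not taken to pair the libraries: differences between replicates 1 and 2, over 90 miRNAs with at least 20 counts in every library (a limit chosen after seeing the data), had Pearson's r of 0.138 (NEBNext and TruSeq), 0.180 (NEBNext and TailorMix) and 0.0370 (TruSeq and TailorMix). Reversed were MIMAT0014943 from NEBNext to TruSeq with the total of miRNA reads (-0.043), miR-23a-3p from NEBNext to TailorMix with annotated reads (0.20), and the kit with the highest share of miR-23a-3p, TailorMix with annotated reads as denominator (exact permutation p = 0.0667). Permutation tests cannot pass 0.05 in this design and say nothing about stability. The ratio to the sum of miR-23a-3p and miR-23b-3p and the tests of miR-486a-5p were not run. The miR-144-3p values of TailorMix rest on 21 and 19 reads.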
